A study of Rattus norvegicus with 9 samples.

Results

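The genes described here are the 5 lysyl oxidases of the rat, Lox, Loxl1, Loxl2, Loxl3 and Loxl4, together with Tgm2, which encodes transglutaminase 2. They were taken by gene symbol, 6 of the 17337 genes in the count table, and all 6 were abundant enough to be among the 11337 genes tested. RNA sequencing had been done on cultured cardiac fibroblasts, the connective-tissue cells that make the matrix of the heart, from Sprague Dawley rats of 3 ages. Fetal cells were taken at embryonic day 18, neonatal cells at postnatal day 1, and the adult rats were 7 weeks old. Each age had 3 libraries, and no library carried a treatment or a genetic change according to the labels. All cells were at passage 0 and had grown until confluent with serum and ascorbic acid in the medium, so the values describe cells on plastic and not tissue. The labels do not say whether the libraries of an age came from separate cultures or animals, so p-values measure only the spread between these libraries, which may be technical.

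Lysyl oxidases are secreted, copper-dependent amine oxidases. They oxidise the side chain of lysine or hydroxylysine in collagen and elastin to a reactive aldehyde, which then condenses with neighbouring side chains into covalent crosslinks that make the fibres insoluble and stiff. Transglutaminase 2 uses another chemistry: it is calcium-dependent and joins a glutamine of a protein to a lysine of another, and it also sits at the cell surface as a partner of integrins and fibronectin. Both kinds of enzyme are studied in the heart because crosslinking of the interstitial collagen bears on the stiffness of the wall and on fibrosis.

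Library totals ran from 13392825 to 22850491 assigned counts, with the 3 adult libraries lowest (13392825 to 13810825). Single members had between 60 counts (Loxl4 in an adult library) and 12363 counts (Loxl2 in a fetal library). Fetal replicate 3 stood apart from the other fetal libraries: a chi-square per degree of freedom over genes was 90.0 and 97.3 against replicates 1 and 2, which differed from each other by 3.94. Members and partner lists are therefore also given without it where their calls changed. Adult replicate 1 also differed more from the other adult libraries (25.8 and 43.0) than these did from each other (6.76). Of 10 fibroblast markers, 9 reached 1 count per 1000000 counts (CPM) at every age, and the exception was Col1a2. Markers of other cells moved with age. The summed level of 13 macrophage markers was 15.2 to 77.1 CPM at the fetal, 171 to 189 at the neonatal and 4716 to 6521 at the adult age, and that of 12 cardiomyocyte markers was 10139 to 14202, 6446 to 7106 and 305 to 319 CPM. In the adult libraries Tnnt2 alone had 303 to 316 CPM, and only 1 of the 12 cardiomyocyte markers reached 1 CPM. Cd163 was at 0 in the fetal and the neonatal libraries, and Csrp3 was at 0 in the adult ones. Summed levels were 23.6 to 30.4, 37.0 to 40.8 and 112 to 124 CPM for 10 endothelial markers and 607 to 1096, 1393 to 1464 and 206 to 363 CPM for 7 mural-cell markers. Tie1 alone had 70.4 CPM on average in the adult libraries. Of 9 endothelial markers tested, 5 were called higher and 2 lower in adult against neonatal cells. The 6 epicardial or mesothelial markers in the table summed to 72.9, 70.1 and 204 CPM in fetal replicates 1, 2 and 3, to 32.4 to 35.0 CPM in neonatal and to 14.7 to 34.1 CPM in adult libraries, where Bnc1 was at 0. Krt8 alone had 144 CPM in fetal replicate 3. The 10 fibroblast markers summed to 53252, 50095 and 26495 CPM in fetal replicates 1, 2 and 3, to 70675 to 76919 CPM in neonatal and to 26667 to 34608 CPM in adult libraries. Most of this sum was Col1a1 and Col3a1. Their means were 37796 and 30805 CPM in neonatal and 14965 and 9468 CPM in adult libraries. Of the 10 fibroblast markers, 3 were called higher and 4 lower in adult against neonatal cells. In that comparison, also used for the endothelial markers above, 31.6% of all genes tested were called higher and 31.8% lower. The part of all these cell-type markers in the values below was not tested. In such bulk RNA, fewer cells of a type and less RNA per cell cannot be told apart.

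In rn6, the build of the count table, the 6 genes lay on 6 chromosomes. Lox (gene ID 24914) lay on the minus strand of chromosome 18 between 47503348 and 47577819, with 1785 exonic bases in 9 exon blocks. Its model held a gap of 53045 bases between exons, and 133 of its exonic bases were shared with Zfp474 on the other strand, a gene that did not exceed 0.108 CPM in any library. Loxl1 (ID 315714) lay on the minus strand of chromosome 8 (63067756 to 63092124, 2452 exonic bases), and Loxl2 (ID 290350) on the plus strand of chromosome 15 (51276022 to 51365236, 2344 exonic bases in 27 blocks). Loxl3 (ID 312478) lay on the plus strand of chromosome 4 (113867398 to 113883713, 2840 exonic bases) and shared 43 exonic bases with Htra2. Loxl4 (ID 309380) lay on the minus strand of chromosome 1 (261835158 to 261853497, 3789 exonic bases), and Tgm2 (ID 56083) on the minus strand of chromosome 3 (154597166 to 154627257, 3508 exonic bases). Counting did not use strand, so a read in bases shared by overlapping genes was assigned to neither.

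RefSeq promoter entries for rat build GRCr8 matched 3 of the 6 genes, Loxl1, Loxl3 and Loxl4. The 250 bases upstream of the start are shown for Loxl1 and Loxl4, because these genes had the highest adult share and the lowest level of the lysyl oxidases and went in opposite directions with age in CPM. They are written 5′ to 3′ on the strand of the gene, from chr8:67612225-67612474 and chr1:251365578-251365827, both on the minus strand. Capitals mark matches to the motifs searched, on either strand.
Loxl1: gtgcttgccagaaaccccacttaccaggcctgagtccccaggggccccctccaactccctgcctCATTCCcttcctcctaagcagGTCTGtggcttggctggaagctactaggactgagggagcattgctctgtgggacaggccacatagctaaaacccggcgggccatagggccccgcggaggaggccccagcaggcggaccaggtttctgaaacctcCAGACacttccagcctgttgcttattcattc
Loxl4: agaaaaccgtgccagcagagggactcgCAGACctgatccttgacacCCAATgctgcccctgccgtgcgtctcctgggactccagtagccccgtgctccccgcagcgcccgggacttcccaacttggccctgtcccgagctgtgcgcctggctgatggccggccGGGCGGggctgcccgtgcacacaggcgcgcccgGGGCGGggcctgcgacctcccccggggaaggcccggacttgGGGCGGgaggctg

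The Loxl1 stretch was 60.4% G and C, the Loxl4 stretch 72.8% and the Loxl3 stretch (chr4:117098108-117098357, plus strand) 62.4%, against a median of 51.2% over 33469 promoters. The search covered 8 motifs on both strands: the TATA box TATAAA, the CCAAT box, the GC box GGGCGG of SP factors, CAGAC (a SMAD element), ACGTG and GCGTG (cores of hypoxia and xenobiotic response elements), TGANTCA (an AP-1 site) and GGAATG (a TEAD site). None of them overlapped another in the stretches shown. Loxl4 held GGGCGG 3 times, at 87, 54 and 13 bases before the start, besides CCAAT at 204 and CAGAC at 223. In Loxl1, CAGAC stood at 31 bases and, on the other strand, at 165 bases before the start, and GGAATG stood at 186 on the other strand. The Loxl3 stretch held GCGTG at 129 bases and GGAATG at 50 bases before its start. Such matches are common: GGGCGG occurred in 30.5% of all promoters of this length, CAGAC in 42.9%, CCAAT in 34.0%, GCGTG in 25.9% and GGAATG in 12.1%. TATAAA (12.9% of promoters), ACGTG (16.6%) and TGANTCA (6.34%) were not found in these 3 stretches. The matches are letters in a window and were chosen with the expression values known.

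Lox, Loxl2 and Loxl4 fell from the fetal to the adult libraries, by 4.13-fold, 4.90-fold and 5.0-fold, while Loxl1 rose by 2.46-fold. Tgm2 fell less, by 1.58-fold, and Loxl3 was highest in the neonatal libraries in CPM but not relative to fibroblast markers, where the fetal libraries were highest. Relative to the same markers, Loxl1 changed by a log2 value of 0.12 from fetal to adult with overlapping libraries, and by -0.36 from fetal to neonatal. Levels are given below in TMM-scaled CPM in the order of replicates 1, 2 and 3, differences as log2 fold changes with their standard error (SE), and calls at an adjusted p under 0.05 over all genes tested (edgeR quasi-likelihood test).

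**Figure D1:**
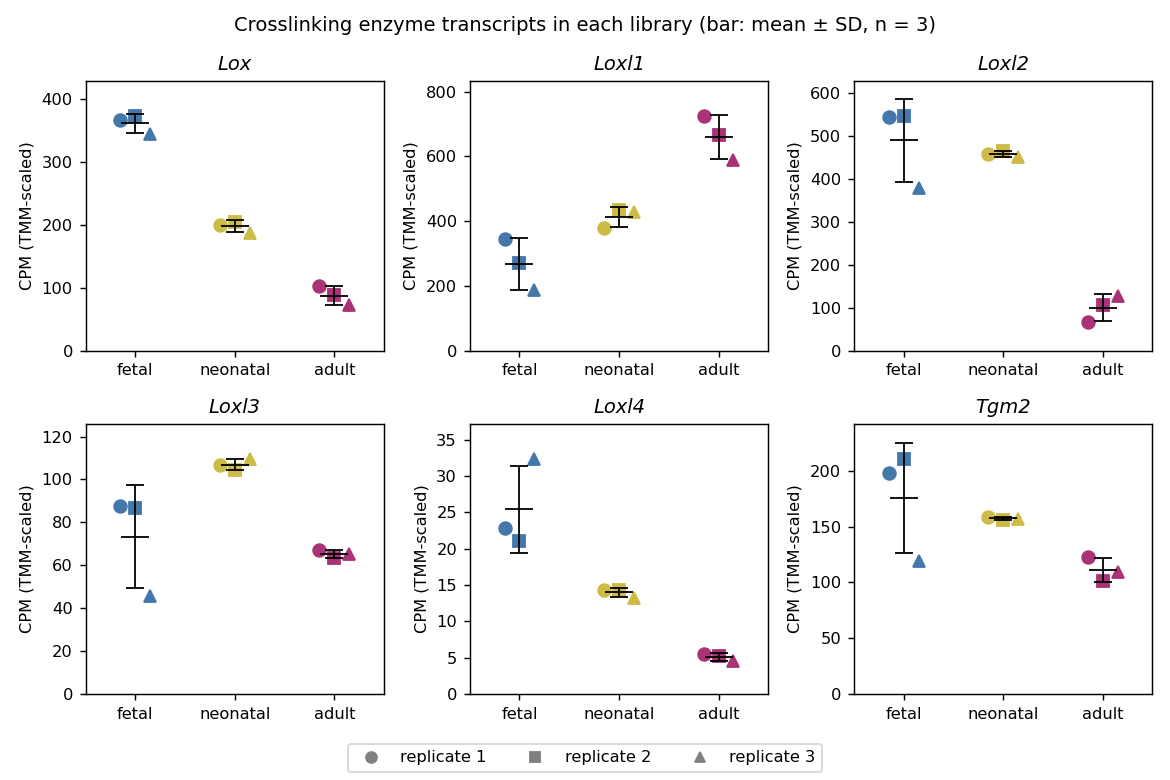
Level of each of the 6 genes (y axis, TMM-scaled CPM, linear from 0, separate scale per panel) in the 3 fetal, 3 neonatal and 3 adult libraries (points), with the mean and SD of each age. Lox and Loxl4 stepped down at each age and Loxl1 stepped up, Loxl2 stood apart only in the adult libraries, and 1 fetal library, replicate 3, lay well below the other fetal libraries for Loxl1, Loxl2, Loxl3 and Tgm2 and above them for Loxl4.

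Lox, the founding member and the enzyme best known for collagen and elastin crosslinking, measured 367, 373 and 344 CPM in the fetal libraries, 201, 205 and 187 CPM in the neonatal and 102, 88.1 and 72.5 CPM in the adult libraries. The 3 ages did not overlap, and the highest adult library was below the lowest neonatal one. Lox fell by 0.87 on the log2 scale from fetal to neonatal cells (SE 0.111, edgeR adjusted p = 0.000521). From neonatal to adult cells it fell by 1.18 (SE 0.113, edgeR adjusted p = 1.93e-05), and over the whole interval by 2.04 (SE 0.115, edgeR adjusted p = 4.14e-07). Its fetal spread was small, 361 ± 15.3 CPM (SD, n = 3), and fetal replicate 3 reached 0.929 of the mean of the other fetal libraries.

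Loxl1, the lysyl oxidase known for its tie to elastic fibres, measured 345, 272 and 186 CPM in the fetal libraries, 378, 433 and 429 CPM in the neonatal and 724, 666 and 589 CPM in the adult libraries. It was the only member whose level was higher in adult than in both younger ages, and its ages did not overlap, although the fetal libraries ran from 186 up to 345 CPM, just below the neonatal level. Loxl1 rose by 1.30 from fetal to adult (SE 0.195, edgeR adjusted p = 0.000262) and by 0.67 from neonatal to adult (SE 0.192, edgeR adjusted p = 0.0127). From fetal to neonatal it rose by 0.63 (SE 0.192, edgeR adjusted p = 0.0318). This call was lost when neonatal replicate 1, 2 or 3 was left out (log2 0.70, 0.60 and 0.61, edgeR adjusted p 0.0543, 0.0900 and 0.0846). Calls over all genes then fell from 4114 to 2607, 2476 and 2575. The Loxl1 call was also lost without fetal replicate 2 (edgeR adjusted p = 0.0668) and when only the libraries of these ages were fitted (0.0552). The direction for Loxl1 also depended on the reference, as it did for Loxl3. Relative to 7 non-collagen fibroblast markers, a scaling added after the data were seen, Loxl1 changed by -0.36 from fetal to neonatal, by 0.12 from fetal to adult with overlapping libraries, and by 0.48 from neonatal to adult. The mean log2 CPM of those markers was itself 6.91 ± 0.443 for fetal, 7.94 ± 0.0285 for neonatal and 8.13 ± 0.165 for adult libraries (SD, n = 3). The 7 markers, Pdgfra, Tcf21, Ddr2, Thy1, Dcn, Lum and Vim, did not move together. From fetal to neonatal their log2 differences ran from 0.07 for Lum to 2.86 for Tcf21. From neonatal to adult Dcn rose by 2.60 and Pdgfra by 1.25, but Ddr2 fell by 1.14 and Lum by 2.02.

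Loxl2, a lysyl oxidase with scavenger receptor domains that acts on the basement membrane collagen IV and is studied in cardiac fibrosis, measured 544, 545 and 377 CPM in the fetal libraries, 458, 465 and 449.9 CPM in the neonatal and 65.6, 106 and 127 CPM in the adult libraries. Fetal and neonatal libraries overlapped, and every adult library was below all of them. The log2 difference between neonatal and fetal cells was -0.10 (SE 0.222, edgeR adjusted p = 0.764). Loxl2 fell by 2.20 from neonatal to adult (SE 0.234, edgeR adjusted p = 4.52e-05) and by 2.29 from fetal to adult (SE 0.234, edgeR adjusted p = 2.40e-05). Relative to their mean, the adult libraries varied more for Loxl2 than for the other members, 99.6 ± 31.4 CPM (SD, n = 3), with adult replicate 1 lowest. Without that library Loxl2 fell by 1.97 from neonatal to adult (edgeR adjusted p = 3.28e-05) and by 2.06 from fetal to adult (edgeR adjusted p = 1.65e-05).

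Loxl3, a close relative of Loxl2 known from craniofacial and muscle development, measured 87.6, 86.8 and 45.7 CPM in the fetal libraries, 107, 105 and 109 CPM in the neonatal and 67.3, 63.4 and 65.2 CPM in the adult libraries. The neonatal libraries were above all others, and the adult libraries lay between fetal replicate 3 and the other fetal libraries. Loxl3 fell by 0.71 from neonatal to adult (SE 0.207, edgeR adjusted p = 0.0144, 1.64-fold). It did not pass the threshold from fetal to neonatal, 0.54 (SE 0.205, edgeR adjusted p = 0.0673), or from fetal to adult, -0.17 (SE 0.207, edgeR adjusted p = 0.484). With fetal replicate 3 left out, these log2 differences were 0.29 (edgeR adjusted p = 0.00157) and -0.42 (edgeR adjusted p = 3.53e-05), both past the threshold. The first also passed without fetal replicate 1 (edgeR adjusted p = 0.0472) and with DESeq2 (adjusted p = 0.0355). Relative to the 7 fibroblast markers the fetal to neonatal difference of Loxl3 was -0.43 and the fetal to adult one -1.32, both without overlap, so on that scale the fetal libraries were highest.

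Loxl4, the remaining relative of Loxl2 and Loxl3, was the least abundant member. It measured 22.8, 21.1 and 32.3 CPM in the fetal libraries, 14.4, 14.4 and 13.2 CPM in the neonatal and 5.51, 5.20 and 4.49 CPM in the adult libraries, from counts of 423, 478 and 608, of 261, 309 and 204, and of 72, 72 and 60. The ages did not overlap, and fetal replicate 3 was above the other fetal libraries here, at 1.47 of their mean. Loxl4 fell by 0.86 from fetal to neonatal (SE 0.161, edgeR adjusted p = 0.00368), by 1.46 from neonatal to adult (SE 0.179, edgeR adjusted p = 8.95e-05) and by 2.32 from fetal to adult (SE 0.178, edgeR adjusted p = 2.97e-06).

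Tgm2 measured 198, 210.1 and 119 CPM in the fetal libraries, 158, 156 and 157 CPM in the neonatal and 123, 101 and 109 CPM in the adult libraries. Fetal replicate 3 lay below the highest adult library, and the other fetal libraries were above all neonatal ones. Tgm2 fell by 0.66 from fetal to adult (SE 0.185, edgeR adjusted p = 0.0102) and by 0.50 from neonatal to adult (SE 0.185, edgeR adjusted p = 0.0390), and between fetal and neonatal cells the log2 difference was -0.16 (SE 0.183, edgeR adjusted p = 0.522). Without fetal replicate 3 that last value was -0.37 and passed (edgeR adjusted p = 0.00182). The neonatal to adult call was lost when neonatal replicate 1, 2 or 3 was left out (log2 -0.50, -0.51 and -0.51, edgeR adjusted p 0.0810, 0.0788 and 0.0769). Calls over all genes then fell from 7197 to 6326, 6210 and 6363. It was also lost without adult replicate 2 (log2 -0.44, edgeR adjusted p = 0.117) or 3 (-0.49, 0.0919).

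Between fetal and neonatal cells 1 member was called higher (Loxl1) and 2 lower (Lox and Loxl4), in a comparison that called 36.3% of all genes tested, 18.3% higher and 18.0% lower. Between fetal and adult cells 1 was called higher and 4 lower, against 70.5% of all genes called (34.9% higher and 35.5% lower). Neonatal and adult cells differed in all 6 members, 1 higher and 5 lower in adult, against 63.5% of all genes called (31.6% higher and 31.8% lower). A difference among the 3 ages in a single test was called for 6 of 6 members and for 77.6% of all genes. No overlap between the libraries was seen for 4 members from fetal to neonatal (57.4% of all genes), 4 from fetal to adult (71.8%) and 6 from neonatal to adult (76.1%). With so many genes called in the whole table, the number of members called is a description and is not particular to these enzymes. The median log2 difference of the members was -0.13, -1.35 and -0.94 in the same order, beside -0.01 for all genes tested in each. The comparisons share libraries, so their values stand side by side. Without fetal replicate 3 the number of members called was 5, 6 and 6, beside 40.6%, 74.8% and 72.2% of all genes.

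**Figure D2:**
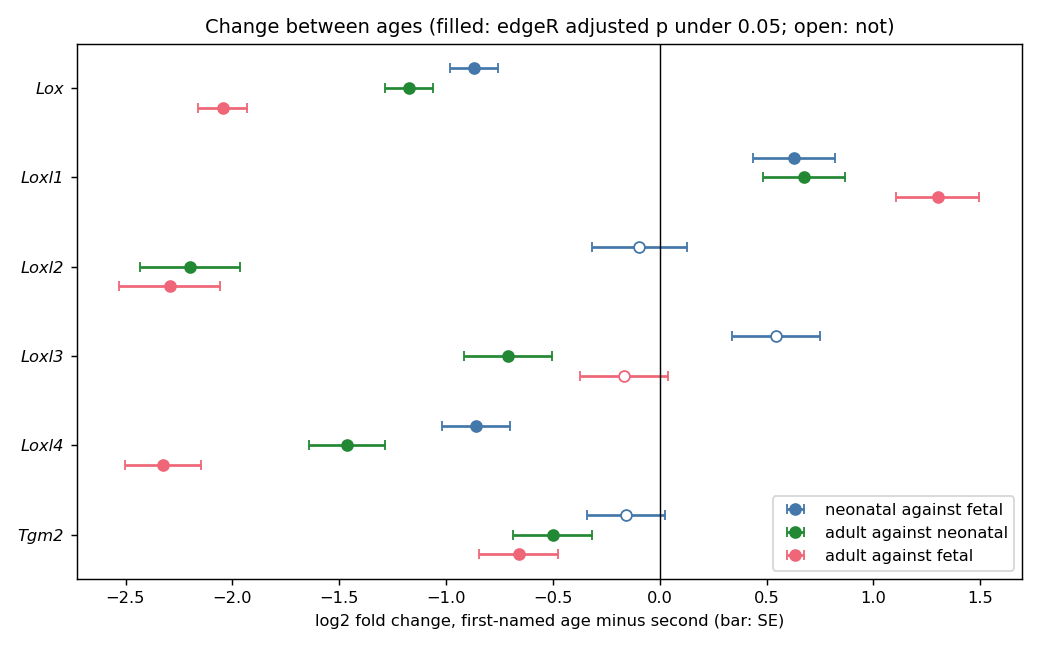
Log2 fold change (x axis, bars: SE) of the 6 genes in each pair of ages, with filled points where the edgeR adjusted p was under 0.05 and open points otherwise. Loxl1 is the gene to the right of 0 in all 3 pairs (0.63, 1.30 and 0.67), and Lox, Loxl2 and Loxl4 lie at -2.04, -2.29 and -2.32 for adult against fetal.

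Levels of different genes were compared per exon length, as counts per kilobase of exon and 1000000 counts (RPKM). In fetal cells Loxl2 (208) and Lox (202) led with overlapping libraries, followed by Loxl1 (109), Tgm2 (50.02), Loxl3 (25.8) and Loxl4 (6.71). The neonatal order was Loxl2 (195), Loxl1 (169), Lox (111), Tgm2 (44.8), Loxl3 (37.6) and Loxl4 (3.69), and no neighbours in it overlapped. Adult cells had Loxl1 first, at 269 RPKM and 5.49 times the next gene, Lox (49.0). Lox and Loxl2 (42.5) overlapped there, as did Loxl2 and Tgm2 (31.7), and Loxl3 (23.0) and Loxl4 (1.34) came last. Against all genes tested, Loxl1 stood at percentile 93.7, 96.1 and 97.3 of RPKM in fetal, neonatal and adult cells. Lox went from percentile 97.2 to 93.6 and 81.8, and Loxl2 from percentile 97.3 to 96.8 and 79.5.

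The summed RPKM of the 5 lysyl oxidases was 553 ± 86.4 at the fetal, 516 ± 13.8 at the neonatal and 385 ± 23.6 at the adult age (SD, n = 3), and the lowest fetal library (454) was above the highest adult one (406). Its make-up differed between the ages. Lox held 37.1% ± 4.71 of the fetal sum, 21.5% ± 0.964 of the neonatal and 12.7% ± 1.40 of the adult sum. Loxl1 held 19.5% ± 3.12, 32.7% ± 1.79 and 69.8% ± 2.98, and Loxl2 held 37.6% ± 2.06, 37.8% ± 0.828 and 11.2% ± 4.13. So the adult sum was mostly Loxl1, 66.8% to 72.8% in each library, where fetal cells had Lox and Loxl2 at near equal shares. Loxl3 stayed between 4.58% and 7.30% on average, and Loxl4 went from 1.27% ± 0.528 to 0.715% ± 0.0376 and 0.347% ± 0.0148.

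**Figure D3:**
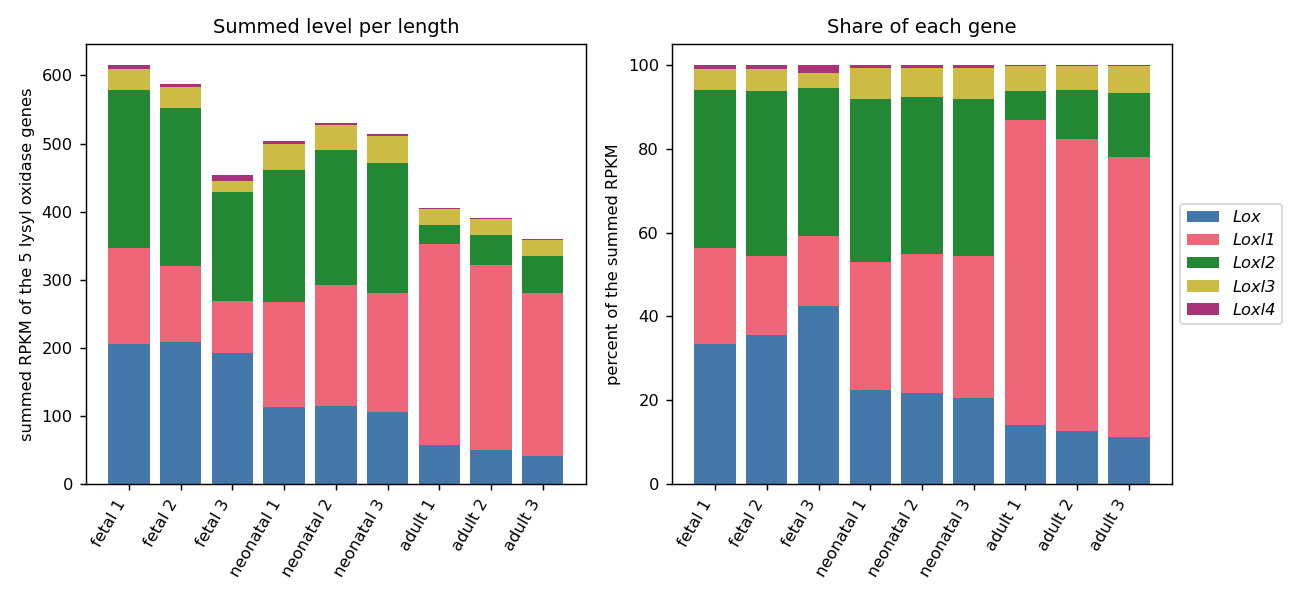
Summed RPKM of the 5 lysyl oxidases (left, y axis from 0) and the share of each gene in that sum (right, percent) in each of the 9 libraries, stacked by gene. Loxl1 took 66.8% to 72.8% in the adult libraries, whereas Lox and Loxl2 together held most of the fetal sum.

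The ratio of Loxl1 to Lox in RPKM was 0.536 ± 0.145 for fetal, 1.53 ± 0.147 for neonatal and 5.53 ± 0.374 for adult libraries (SD, n = 3), with no overlap between ages (fetal 0.394 to 0.684, adult 5.16 to 5.91). This ratio needs no scaling between libraries, and it was below 1 in all fetal libraries and above 1 in all others. Its position against 1 depends on the annotated exon lengths, as do the orders and shares above. The lengths cancel in its change between ages. Loxl1 over Loxl2 was 0.518 ± 0.0766, 0.864 ± 0.0652 and 6.99 ± 3.18, with adult libraries from 4.42 to 10.6. Loxl2 over Lox did not follow age in a single direction, at 1.03 ± 0.165, 1.76 ± 0.0564 and 0.915 ± 0.424.

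Collagen I and III are the main fibrillar substrates of lysyl oxidases in heart, so the enzymes were also set against the RPKM of Col1a1 and Col3a1. Col1a2 was left out because it had less than 1 CPM in every library (at most 0.976 CPM). Its model in the annotation spread 104 exon blocks over 2039299 bases, against 51 blocks over 16990 bases for Col1a1. Per 100 RPKM of the collagen pair, the 5 lysyl oxidases came to 6.84, 6.92 and 11.2 in the fetal libraries, to 4.08, 3.93 and 3.95 in the neonatal and to 10.8, 8.20 and 6.97 in the adult libraries. By this sum neonatal cells had the lowest enzyme transcript per collagen transcript, below every fetal and adult library, and fetal and adult libraries overlapped. Single genes did not all follow the sum. For Loxl2 the adult libraries (0.746 to 1.05) were below the neonatal ones (1.47 to 1.58). Neonatal and adult libraries overlapped for Lox and Loxl4, and fetal and neonatal ones for Loxl1. Loxl1 alone was 1.58 ± 0.282, 1.30 ± 0.0485 and 6.08 ± 1.64 on this scale. Lox was 3.16 ± 1.37, 0.856 ± 0.0517 and 1.12 ± 0.375, with fetal replicate 3 at 4.73 above 2.29 and 2.46 in the other fetal libraries. Loxl2 was 3.09 ± 0.752, 1.51 ± 0.0629 and 0.917 ± 0.157. Tgm2 per 100 of the pair was 0.721 ± 0.103, 0.347 ± 0.0180 and 0.715 ± 0.188, again lowest in neonatal libraries. No test was made on these ratios, which are descriptions with SD over n = 3 libraries.

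**Figure D4:**
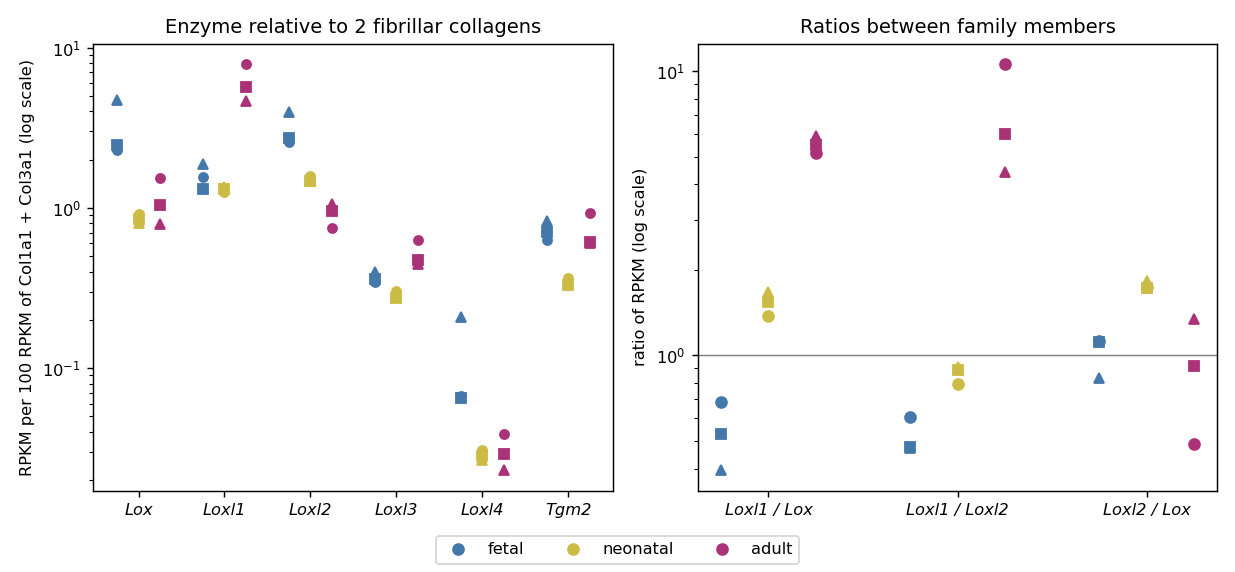
Ratios of RPKM in each library (symbol shapes: replicates; colours: ages; both y axes logarithmic): left, each of the 6 genes per 100 RPKM of Col1a1 plus Col3a1; right, Loxl1 over Lox, Loxl1 over Loxl2 and Loxl2 over Lox, with a line at 1. On the left the adult libraries of Loxl1 (4.66 to 7.87) lie above all its fetal and neonatal ones, as do those of Loxl3 by a smaller margin, and on the right Loxl1 over Lox climbs from 0.394 to 0.684 in fetal to 5.16 to 5.91 in adult libraries.

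Among the members, profiles over the 9 libraries were closest for Lox and Loxl4, with a root mean square difference of 0.221 between mean-centred log2 CPM values. Loxl3 and Tgm2 followed at 0.309. Loxl1 and Loxl2 were farthest apart at 1.61, and Lox and Loxl1 differed by 1.40. By the same measure, over 8323 genes with a mean of at least 10 CPM, the 3 genes most like Lox were Epha2 (0.147), Cacna1c (0.157) and Cdkn2b (0.157). The nearest to Loxl4 were Sh3bp4 (0.121) and Cdkn2b (0.128), so Cdkn2b, a cyclin-dependent kinase inhibitor, appeared for both. Loxl1 was nearest to Nat6 (0.109), Tnfrsf1a (0.112) and Dnase1l1 (0.117). For Tnfrsf1a, a receptor of tumour necrosis factor, the level was 164, 284 and 440.3 CPM at the 3 ages. Loxl2 was nearest to Cspg4 (0.135), the NG2 proteoglycan, with 92.0, 103 and 19.2 CPM, then to Fam129a (0.143) and Ccnd2 (0.170). Cspg4 is also 1 of the 7 mural-cell markers, whose part in the Loxl2 values was not tested. Nearest to Loxl3 were Rab3d (0.0966), Itga8 (0.0989) and Vps13b (0.104), and nearest to Tgm2 were Acsf2 (0.0794), Tob1 (0.0874) and F2r (0.0944). These names depend on the measure: with Pearson correlation in its place, 1 of the 3 genes remained for Loxl3 (Itga8) and for Tgm2 (Acsf2) and 0 for each of the other 4 members.

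The enzymes depend on other genes for their activation, their substrates and their copper, and 7 lists of partner and related genes were counted. Over all genes tested, 36.3% were called from fetal to neonatal, 70.5% from fetal to adult and 63.5% from neonatal to adult. Leaving out fetal replicate 3 made these shares 40.6%, 74.8% and 72.2%. The counts of every list below stand beside these shares as descriptions, and no list was tested against them. Lysyl oxidase is secreted as a proenzyme, and the proteases and enhancers that process it and the procollagens gave 6 tested genes of 8. Of these, 3 were called higher and 1 lower from fetal to neonatal, 3 higher and 3 lower from fetal to adult, and 0 higher and 2 lower from neonatal to adult, with median log2 differences of 0.81, 0.09 and -0.05. With fetal replicate 3 left out the counts were 4 higher and 2 lower, 3 and 3, and 1 and 2, and the medians 0.57, -0.18 and -0.06. Bmp1, the protease that cleaves the Lox propeptide, was 143 ± 35.9 CPM at the fetal, 285 ± 5.14 at the neonatal and 296 ± 16.3 at the adult age (SD, n = 3). It rose by 0.99 (edgeR adjusted p = 0.00179) and 1.05 (0.000276) against fetal cells, and adult minus neonatal was 0.06 (edgeR adjusted p = 0.767). Its relative Tll1 went from 175 ± 58.6 and 123 ± 3.98 CPM to 7.95 ± 2.57 CPM in adult cells, a fall by 3.95 on the log2 scale against neonatal (edgeR adjusted p = 9.19e-06). Pcolce, which enhances procollagen cleavage, rose from a fetal 852 ± 287 CPM to a neonatal 1822 ± 40.7 (1.10, edgeR adjusted p = 0.00509) and was 1801 ± 60.1 in adult cells. Adamts2, the procollagen N-proteinase, rose from 134 ± 47.9 to 341 ± 15.2 CPM (1.34, edgeR adjusted p = 0.00276) and was 466 ± 23.8 CPM in adult cells.

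Scaffolds and elastic fibre partners were represented by 18 tested genes of 20. They had 2 called higher and 3 lower from fetal to neonatal, 6 and 7 from fetal to adult, and 6 and 9 from neonatal to adult, with medians of 0.27, -0.39 and -0.74. Leaving out fetal replicate 3 gave 3 and 4, 6 and 10, and 6 and 10, and the first median turned to -0.06. Eln, the elastin substrate of Lox and Loxl1, was 3615 ± 162 CPM in neonatal and 196 ± 26.7 CPM in adult cells and fell by 4.21 between them (edgeR adjusted p = 0.00214). The fetal libraries ran from 226 CPM in replicate 3 to 3832 CPM, and the mean without that library was 3681 CPM. Adult minus fetal was -3.69 for Eln with it (edgeR adjusted p = 0.00324) and -4.24 without it (edgeR adjusted p = 2.30e-10). Fbln5, a fibulin that tethers Loxl1 to elastin, fell by 2.27 from fetal to adult (edgeR adjusted p = 0.00452) and was 204 ± 12.2 CPM in adult cells. For Fbln5 the neonatal minus fetal value was -0.48 (edgeR adjusted p = 0.493), and without fetal replicate 3 it was -0.94 and passed (edgeR adjusted p = 4.71e-07). Efemp2, the fibulin that binds Lox, rose instead, from a fetal 281 ± 58.8 CPM to a neonatal 448 ± 6.71 and an adult 572 ± 49.1 (1.02 over the whole interval, edgeR adjusted p = 0.000139). The microfibril genes Mfap2 and Mfap5 went opposite ways: Mfap2 fell from a fetal 36.3 ± 3.79 CPM to a neonatal 1.06 ± 0.183 (by 5.10 on the log2 scale, edgeR adjusted p = 2.04e-06), and Mfap5 rose from a neonatal 22.9 ± 0.553 to an adult 332 ± 7.93 CPM (3.86, edgeR adjusted p = 2.13e-09). Fn1, the fibronectin that binds both Lox processing complexes and transglutaminase 2, had 20564, 24238 and 15165 CPM on average and was called in none of the comparisons (edgeR adjusted p 0.580, 0.234 and 0.0875). Without fetal replicate 3 the Fn1 value was -0.78 for adult against fetal (edgeR adjusted p = 6.16e-06) and -0.68 for adult against neonatal (9.86e-06).

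Lysine residues of collagen are hydroxylated in the cell before Lox can use them as hydroxylysine, and 7 of 8 genes of this step were tested. They had 3 called higher and 0 lower from fetal to neonatal, 3 and 3 from fetal to adult, and 0 and 3 from neonatal to adult (medians 0.38, 0.15 and -0.23). These became, without fetal replicate 3, 4 and 0, 3 and 3, and 0 and 4 (medians 0.21, -0.03 and -0.24). Plod1, the hydroxylase of helical lysines, rose from a fetal 164 ± 47.8 CPM to a neonatal 362 ± 6.27 (1.14, edgeR adjusted p = 0.00206) and was 376 ± 22.3 CPM in adult cells. Plod2, the telopeptide lysyl hydroxylase, was the most abundant of the 3 in CPM, with 984 ± 245, 1396 ± 34.1 and 1302 ± 90.4 CPM, and it rose by 0.50 from fetal to neonatal cells (edgeR adjusted p = 0.0375). Plod3 did not pass in any comparison (edgeR adjusted p 0.0604, 0.359 and 0.179). Without fetal replicate 3, Plod3 was called higher from fetal to neonatal (0.21, edgeR adjusted p = 0.00839) and lower from neonatal to adult (-0.24, edgeR adjusted p = 0.000828). Serpinh1, the collagen chaperone HSP47, fell from a neonatal 4362 ± 81.1 CPM to an adult 1983 ± 94.8 (by 1.14 on the log2 scale, edgeR adjusted p = 5.66e-05), and Fkbp14 fell by 0.59 (edgeR adjusted p = 0.000107).

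Of 9 collagen substrate genes, 8 were tested, with 3 called higher and 0 lower from fetal to neonatal, 0 and 4 from fetal to adult, and 0 and 7 from neonatal to adult (medians 0.65, -0.60 and -1.35). Leaving out fetal replicate 3 gave 0 higher and 6 lower from fetal to adult and left the other counts as they were, and the first median became 0.26. Col1a1 fell by 1.34 from neonatal to adult (37796 ± 2211 against 14965 ± 2783 CPM, edgeR adjusted p = 0.00221). Col3a1 rose by 1.25 from fetal to neonatal (edgeR adjusted p = 0.00647) and fell by 1.70 from neonatal to adult (edgeR adjusted p = 0.000413). Col5a1 and Col5a2, chains of the collagen V that nucleates fibrils, fell by 1.42 (edgeR adjusted p = 8.64e-06) and 0.99 (edgeR adjusted p = 2.64e-05) from neonatal to adult cells. Loxl1 rose over the same interval in which these substrates, Lox and Loxl2 fell.

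All 10 copper supply genes were tested, with 5 called higher and 2 lower from fetal to neonatal, 6 and 2 from fetal to adult, and 5 and 1 from neonatal to adult (medians 0.17, 0.94 and 0.38). Leaving out fetal replicate 3 gave 5 and 2, 6 and 3, and 6 and 1. Atp7a, the pump that loads copper into secreted enzymes such as Lox, fell to an adult 16.3 ± 1.67 CPM from a fetal 49.0 ± 6.24 and a neonatal 46.2 ± 5.09 CPM (by 1.59 against fetal, edgeR adjusted p = 4.27e-06). Atox1, the chaperone that hands copper to this pump, rose from a neonatal 37.5 ± 1.65 to an adult 79.9 ± 7.45 CPM (1.09, edgeR adjusted p = 9.71e-06). Slc31a2, a copper transporter, rose by 2.17 from fetal to adult cells (11.2 ± 1.19 to 50.6 ± 3.79 CPM, edgeR adjusted p = 1.68e-07). The 13 macrophage markers were all called higher in adult cells against fetal and against neonatal cells, beside 34.9% and 31.6% of all genes. The part of these markers in the adult levels of the copper genes was not tested.

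Of 10 other genes of the transglutaminase family and of collagen crosslinking, 4 were tested, with 3 called higher and 1 lower from fetal to neonatal. From fetal to adult 1 and 1 were called, and from neonatal to adult 2 and 2 (medians 0.46, 0.78 and -0.55). These include genes at low levels: Epb42, called higher from fetal to neonatal, went from 0.0735 to 1.11 CPM, and Tgm1, called lower, from 4.18 to 0.514 CPM. When fetal replicate 3 was left out they were 2 and 1, 2 and 1, and 2 and 2, and the second median was 1.16. Tgm4 was low but rose, from a fetal 7.96 ± 0.600 CPM to a neonatal 10.6 ± 0.886 and an adult 14.9 ± 1.72 (0.91 over the whole interval, edgeR adjusted p = 0.000190). F13a1, the transglutaminase subunit of coagulation factor XIII, had at most 2 counts in a library and was not tested. Pxdn, the peroxidase that forms the sulfilimine crosslinks of collagen IV, fell by 1.59 from neonatal to adult cells (1171 ± 17.1 against 389.8 ± 85.8 CPM, edgeR adjusted p = 4.23e-05).

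The 9 cell-surface partners of transglutaminase 2 were all tested, with 5 called higher and 0 lower from fetal to neonatal, 3 and 3 from fetal to adult, and 1 and 5 from neonatal to adult (medians 0.89, -0.44 and -0.68). Itgb3, an integrin subunit, was highest in neonatal cells, at 125 ± 4.10 CPM against 37.5 ± 5.92 in fetal and 22.6 ± 2.67 in adult cells, and fell by 2.47 from neonatal to adult (edgeR adjusted p = 4.15e-07). Adgrg1, an adhesion receptor that binds transglutaminase 2, fell by 3.49 over the same interval (35.5 ± 1.93 against 3.14 ± 1.01 CPM, edgeR adjusted p = 4.84e-07). Without fetal replicate 3, the called partners numbered 5 higher and 0 lower from fetal to neonatal, 3 and 6 from fetal to adult, and 2 and 7 from neonatal to adult.

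**Figure D5:**
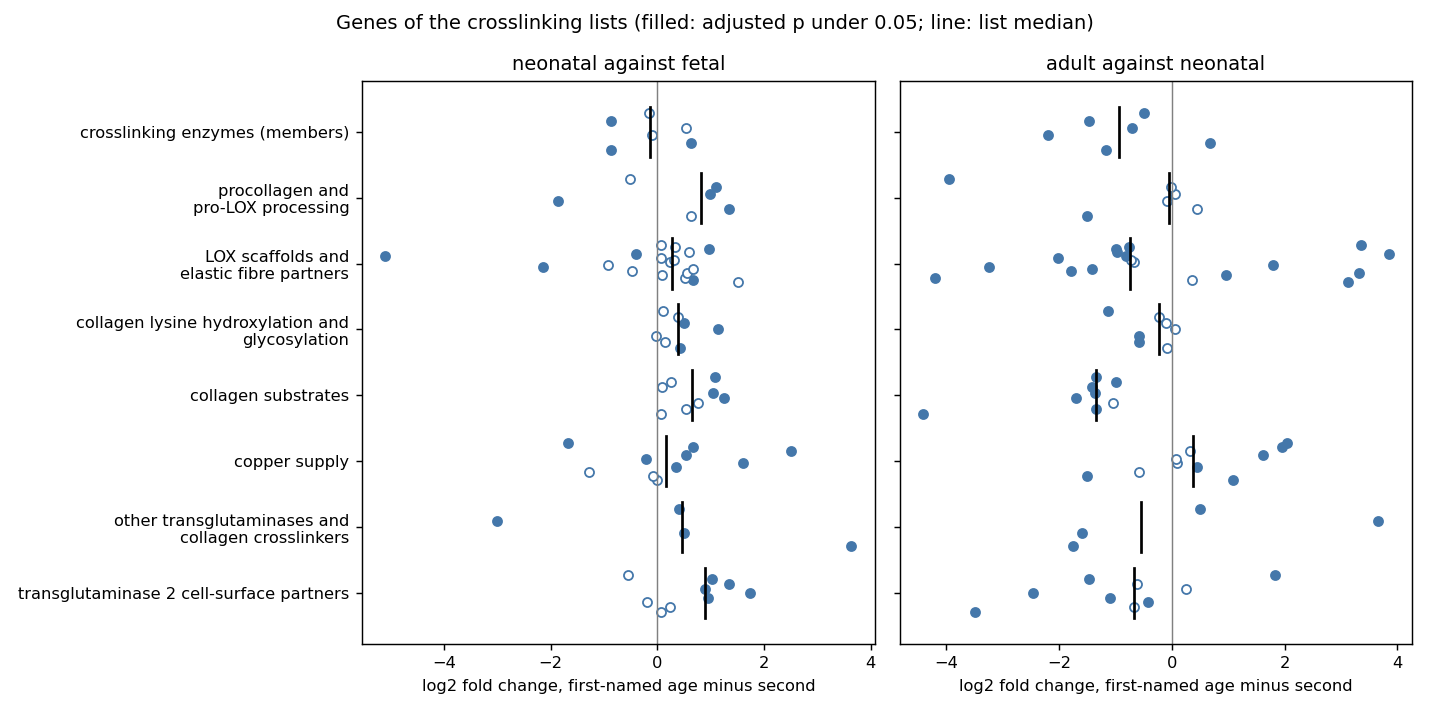
Log2 fold change (x axis) of each tested gene (points, filled where adjusted p was under 0.05) in the 7 partner lists and, in the top row, the 6 crosslinking enzymes, for neonatal against fetal (left) and adult against neonatal (right), with the median of each list as a vertical line. Collagen substrates have a median of -1.35 for adult against neonatal, beside -0.01 for all genes tested, and the enzymes one of -0.94, with Loxl1 as the point to the right of 0.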

How the data were processed

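The authors deposited raw counts per gene for the 9 libraries, with exon lengths. Counting was done with featureCounts 1.6.3 on an rn6 annotation, with no option that would use strand, per the file headers. Per the submitters' processing notes, Trimmomatic 0.39 and STAR 2.5.2b were also used. A second table deposited by the authors holds normalized signal values for 12786 genes, each equal to the count over 1 size factor per library. These factors entered no fit. The alternative scaling by size factors computed its own from the counts of the genes tested. No read-level processing was repeated.

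The test was that of edgeR 4.0.16 (R 4.3.3): filterByExpr by age (11337 genes left), TMM, robust quasi-likelihood fit of 9 libraries with age as the only term, and Benjamini-Hochberg adjustment over all genes tested within a comparison, with 0.05 as threshold. CPM used TMM-scaled library sizes, log2 CPM a prior count of 2, and RPKM the deposited exon length. On counts simulated for adult against fetal over 11337 genes, 79.4% of changes of 1 and 97.0% of changes of 2 on the log2 scale were recovered, and 0.163% of unchanged genes were called. The simulation changed 100 genes by each size, up and down alike, and set no library apart. The real comparison called 70.5% of genes and held fetal replicate 3, so these shares do not carry over to it. Library totals (13392825 to 22850491 counts) bound the precision, most of all for Loxl4, and counting error is only a part of the error, since PCR copies were not told apart by molecular identifiers. No pair of libraries of an age agreed within counting error, so all were kept.

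The members, lists, motifs and rules were chosen with earlier results of these data known. Named partners are the 2 genes of each list with the smallest p over the ages and a mean of at least 10 CPM in some age, plus 14 fixed genes (Bmp1, Pcolce, Fn1, Col1a1, Col3a1, Plod1, Plod2, Plod3, Eln, Efemp2, Fbln5, F13a1, Pxdn and Atp7a), and the 3 genes most like each member, of which 1 is not reported here. Alternatives were DESeq2 1.42.0, other scalings, no filter, a fold minimum, fits of 2 ages, a replicate block and leaving out each library.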

Additional observations from a re-analysis of the deposited data

How the results depend on the processing

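Of 306 values (6 genes, 3 comparisons, 17 alternatives other than the fold minimum), 291 kept their direction and side of the threshold, 10 lost their call, 5 gained one and 0 changed sign. The lost and gained calls concern Loxl1, Loxl3 and Tgm2, with their values beside the results. Relative to 7 fibroblast markers, chosen after the data were seen, neonatal against fetal turned to -0.36 for Loxl1 and -0.43 for Loxl3 (not called in CPM) and went to -1.90 for Lox, -1.11 for Loxl2, -1.86 for Loxl4 and -1.14 for Tgm2, none with overlap. Adult against fetal went to -3.27, -3.54, -1.32, -3.50 and -1.84 for Lox, Loxl2, Loxl3, Loxl4 and Tgm2, and 0.12 for Loxl1. The 7 markers themselves did not move together between the ages. With a minimum log2 change of 1, 1272, 3675 and 2838 genes were called for neonatal against fetal, adult against fetal and adult against neonatal. The members among them numbered 0, 4 and 3. Of the 18 member values, 7 lost their call by this minimum, and the setting itself asks for larger changes. Leaving out 1 library gave 2476 to 4679 genes (main 4114), 7509 to 8616 (7987), 6210 to 8322 (7197) and, for any difference, 8082 to 9453 (8796), and 2 to 5, 5 to 6, 5 to 6 and 4 to 6 members. Scaling by library size alone called 1360 genes higher and 3325 lower in neonatal against fetal cells (2074 and 2040 with TMM), with the median of all genes at -0.18 there and at -0.12 in adult against fetal cells, and the cause was not tested. No member changed direction under it. Correlations of deviations between ages were -0.0649 to 0.0521 for libraries with the same number and -0.0551 to 0.0797 for different numbers. With 3 libraries per age these values cannot decide whether the numbers pair libraries. With the number as a replicate block, 3713, 7801, 6985 and 8516 genes and 3, 5, 6 and 6 members were called. Depth limits Loxl4, with 60 to 72 counts in adult libraries.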
